A study of Homo sapiens with 72 samples.

Results

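Mitochondrial ribosomal protein genes were followed across a series of HEK293 Flp-In T-REx cells irradiated with ultraviolet light (UV) and then given an inhibitor of the checkpoint kinase ATR. HEK293 is a human embryonic kidney line, and Flp-In T-REx is a derivative that holds an FRT site for a transgene and expresses the Tet repressor, so that the transgene can be induced with tetracycline. The members were all genes of the deposited count table whose symbol begins with MRPL or MRPS followed by a digit, which gave 78 of 19324 genes, and all 78 passed the filter on low counts. By symbol, 49 belong to the large subunit and 29 to the small subunit, and they lie on 21 chromosomes. MRPS36 is counted by its symbol, although its protein is now assigned to the α-ketoglutarate dehydrogenase complex. The 4 lines were CSB_KO, 1 clone edited in ERCC6 (the gene of CSB, which couples repair to transcription), STK19_KO1 and STK19_KO2, a pair of clones edited in STK19, and WT, the only unedited line. Each line had 6 groups of 3 libraries. These were 0 h (untreated), 3 h after UV, 4 h ATRi, 4 h DMSO, 20 h ATRi and 20 h DMSO. ATRi is VE-821 at 3 µM in DMSO, added after 3 h of recovery from UV, and DMSO is its solvent alone. The labels do not settle whether 4 h and 20 h count from UV or from the addition of ATRi, they give no UV dose, and no unirradiated cells were kept to the later times. Nothing says that the 3 libraries of a group came from separate cultures, so the p-values stand for the spread among libraries, which may be technical.

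The mitoribosome is the ribosome of the mitochondrial matrix, and it translates the few proteins that mitochondrial DNA encodes, all of them subunits of the respiratory chain and ATP synthase. Its RNAs come from mitochondrial DNA, while all of its proteins are encoded in the nucleus, made in the cytosol and imported. Of the members, 46 were listed as homologues of bacterial ribosomal proteins and 32 as specific to mitochondria. UV lesions block RNA polymerase II, so a long gene is more likely than a short one to carry a block, and CSB is one of the proteins that recognise the stalled polymerase.

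The promoters of 6 members are shown because these genes carry the results below or hold the ETS motif. For 70 members the RefSeq table held the sequence before the gene start (GRCh38.p14), and 8 members had no entry. In the 250 bases before the start, read on both strands, CCGGAAG (the core of sites bound by ETS factors such as GABP) was found in 23 of 70 members, or 32.9%, against 11.7% of 15843 promoters of protein-coding genes. ATGGCGG (YY1) was found in 7.14% of members and 3.14% of all promoters, and CACGTG (the E-box) in 12.9% and 7.56%. The NRF1 motif, GCGC and TGCGC parted by any 1 base, was found in 8.57% and 7.35%, GGGCGG (SP1) in 52.9% and 54.9%, and TATAAA in 4.29% and 9.50%. At least 1 of the NRF1, ETS and YY1 motifs stood in 31 members, or 44.3%, against 20.0% of all promoters. A match of letters is a description and not a site of binding. The sequences give the 220 bases before the start, 5′ to 3′ on the strand of the gene, with matches to the ETS or NRF1 motif on either strand in capitals. They are MRPS34 (chr16:1773135-1773354, minus strand), MRPL51 (chr12:6493263-6493482, minus strand), MRPL33 (chr2:27771499-27771718, plus strand), MRPL17 (chr11:6683341-6683560, minus strand), MRPS11 (chr15:88467488-88467707, plus strand) and MRPL12 (chr17:81703147-81703366, plus strand).
MRPS34: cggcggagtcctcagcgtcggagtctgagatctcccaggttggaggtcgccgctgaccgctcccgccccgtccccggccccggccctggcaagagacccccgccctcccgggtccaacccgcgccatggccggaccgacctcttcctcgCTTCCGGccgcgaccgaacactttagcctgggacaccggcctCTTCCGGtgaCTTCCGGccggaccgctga
MRPL51: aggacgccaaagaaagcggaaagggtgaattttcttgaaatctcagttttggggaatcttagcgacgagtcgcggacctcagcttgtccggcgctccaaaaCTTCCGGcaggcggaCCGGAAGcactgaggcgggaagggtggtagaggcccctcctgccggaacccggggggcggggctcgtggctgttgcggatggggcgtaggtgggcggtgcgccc
MRPL33: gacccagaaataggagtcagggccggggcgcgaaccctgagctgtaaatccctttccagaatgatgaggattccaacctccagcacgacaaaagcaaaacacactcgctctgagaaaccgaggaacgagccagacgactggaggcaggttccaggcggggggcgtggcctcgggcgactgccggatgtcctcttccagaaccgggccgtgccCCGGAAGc
MRPL17: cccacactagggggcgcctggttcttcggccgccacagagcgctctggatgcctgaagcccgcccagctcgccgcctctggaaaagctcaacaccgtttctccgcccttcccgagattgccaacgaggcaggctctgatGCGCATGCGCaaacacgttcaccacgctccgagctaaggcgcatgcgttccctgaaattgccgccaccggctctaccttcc
MRPS11: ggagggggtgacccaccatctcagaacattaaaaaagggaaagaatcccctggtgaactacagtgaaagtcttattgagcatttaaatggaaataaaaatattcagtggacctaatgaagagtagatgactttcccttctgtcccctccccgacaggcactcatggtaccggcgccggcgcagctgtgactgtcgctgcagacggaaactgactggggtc
MRPL12: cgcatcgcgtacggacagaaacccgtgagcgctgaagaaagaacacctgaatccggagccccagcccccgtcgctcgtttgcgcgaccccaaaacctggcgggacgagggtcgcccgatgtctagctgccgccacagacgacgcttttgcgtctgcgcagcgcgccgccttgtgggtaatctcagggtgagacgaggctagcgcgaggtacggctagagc
MRPS34 had 3 ETS matches in this window, MRPL51 had 2 and MRPL33 had 1. MRPL17 had 1 NRF1 match, and neither motif was in the windows of MRPS11 and MRPL12. MRPS11 and MRPL46 are transcribed away from each other on chromosome 15, with 319 bases between their RefSeq starts. By the deposited coordinates the starts lie closer, MRPS11 at 88467453 and MRPL46 at 88467390. The printed window of MRPS11 then lies inside the gene, as does that of MRPL51 (deposited as 6491886 to 6493841).

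Library totals ran from 36.5 to 212.9 M counts, and the lowest count of any member in any library was 141. Values per library are CPM, the count as a share of the library total times 1e6, after TMM scaling of the totals. In the edited lines, ERCC6 stood at 6.97 ± 0.611 CPM in CSB_KO and 23.5 ± 0.473 CPM in WT at 0 h (SD, n = 3 each; log2 -1.77 ± 0.08, SE). STK19 stood at 17.5 ± 0.587 CPM in STK19_KO1, 17.1 ± 0.862 CPM in STK19_KO2 and 19.0 ± 1.07 CPM in WT, which did not pass the test (edgeR adjusted p = 0.187 and 0.0882). The kidney tubule markers summed to 2.29 to 26.3 CPM over the libraries, nearly all of it LRP2, while UMOD was not in the table and SLC34A1 and AQP2 averaged 0.00363 and 0.00201 CPM. Blood markers summed to at most 1.60 CPM, squamous markers to at most 0.486 CPM and fibroblast markers to 4.41 to 20.1 CPM, chiefly COL1A1. In 5 libraries values lay apart from the other replicates of their group, as known from earlier results of these data: WT 0 h replicate 1, WT 3 h replicate 1, WT 4 h DMSO replicate 1, STK19_KO1 3 h replicate 3 and STK19_KO1 4 h ATRi replicate 1. Values below include them unless stated, and member counts that moved by over 1.5 times without them are given both ways.

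Summed over the 78 genes, these transcripts had higher TMM-scaled CPM early after UV in all 4 lines, and the scaled sums parted by 20 h. In CSB_KO the sum was 5203 ± 55.4 CPM at 0 h, 6349 ± 58.6 CPM at 3 h, 6549 ± 79.3 CPM at 4 h DMSO and 6623 ± 98.3 CPM at 20 h DMSO (SD, n = 3 each). In WT it was 5373 ± 85.0, 7009 ± 482, 6827 ± 251 and 5023 ± 91.3 CPM at the same times. In WT at 3 h the libraries stood at 7564, 6693 and 6769 CPM, and in STK19_KO1 at 6169, 6434 and 7550 CPM, with 1 library of each far above the others. In scaled CPM CSB_KO thus held its early level at 20 h, while each WT library at 20 h DMSO lay below each WT library at 0 h. Both statements rest on the scaling. The TMM factors at 20 h DMSO were 0.884, 0.857 and 0.870 in CSB_KO and 1.13, 1.12 and 1.11 in WT. At 0 h they were 1.08, 1.07 and 1.08 in CSB_KO and 1.06, 1.08 and 1.07 in WT. A scaled sum is divided by its factor, so without the scaling these lines differ far less at 20 h. STK19_KO1 had 5470 ± 82.8, 6717 ± 733, 6412 ± 4.68 and 5559 ± 122 CPM, and STK19_KO2 had 5318 ± 68.9, 6145 ± 97.7, 6336 ± 177 and 5643 ± 57.3 CPM. In scaled CPM the 2 STK19 clones at 20 h lay between CSB_KO and WT. The median level of the members did not fall in WT as the sum did. It was 5.70 ± 0.024 log2 CPM at 0 h and 5.77 ± 0.037 at 20 h DMSO in WT (SD, n = 3 each). In CSB_KO it was 5.70 ± 0.013 and 6.11 ± 0.006. With ATRi at 20 h the sums were 6453 ± 70.1 CPM in CSB_KO, 5821 ± 149 CPM in STK19_KO1, 6061 ± 63.3 CPM in STK19_KO2 and 6052 ± 167 CPM in WT. The 3 WT libraries with ATRi all lay above the 3 with DMSO. In CSB_KO the groups nearly touched, with the highest ATRi library at 6534 CPM and the lowest DMSO library at 6535 CPM. These are shares of a library total scaled by TMM. Fewer cells and less RNA per cell cannot be told apart, nor can a rise of these transcripts and a fall of others.

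**Figure D1:**
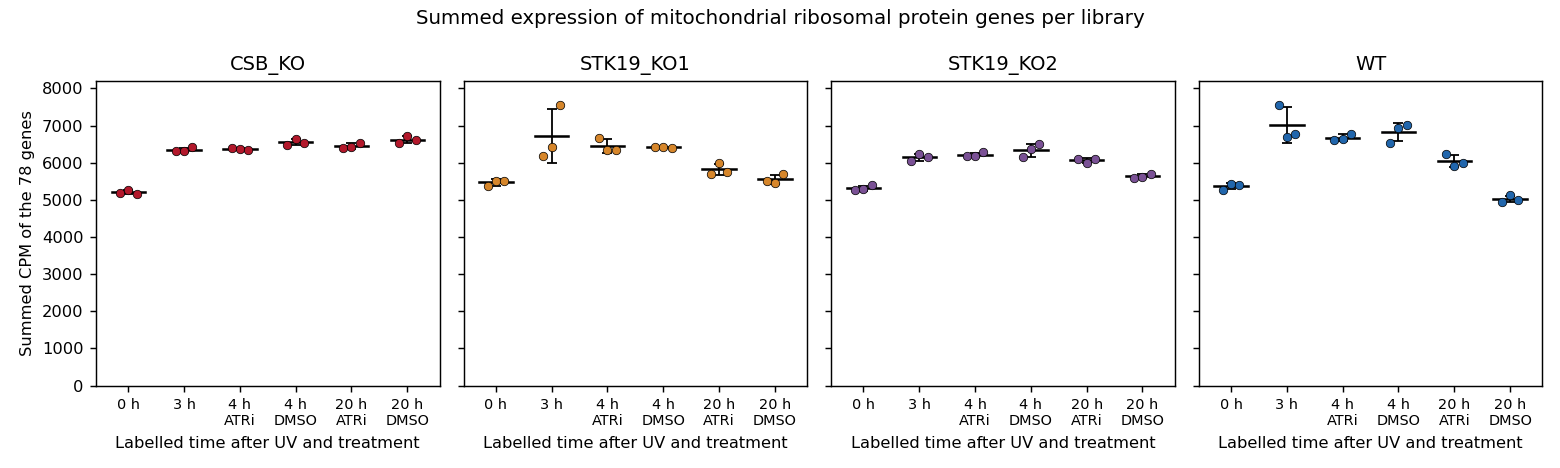
Summed CPM of the 78 genes, after TMM scaling, in each library (points), with the mean (bar) and SD (error bar) of 3 replicates, by line and by labelled time and treatment. CSB_KO stands at 6623 ± 98.3 CPM at 20 h DMSO and WT at 5023 ± 91.3 CPM; 1 WT library and 1 STK19_KO1 library at 3 h lie above the others of their group.

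Levels differed widely between members. Per kilobase of exon (GENCODE v29), the highest in WT at 0 h were MRPL12, the stalk protein that binds translation factors, at 231 ± 28.7 CPM per kb (SD, n = 3), MRPS34 at 156 ± 18.7 and MRPS26 at 93.8 ± 14.5. The lowest were MRPL46 at 4.37 ± 0.208 CPM per kb, MRPL48 at 5.33 ± 0.372 and MRPS33 at 6.51 ± 1.04, and the median member stood at 21.4. All exons of all transcripts count in these lengths, so a gene with rare long isoforms is set too low. GENCODE v29 names pseudogenes of 34 members, and 13 members overlap another protein-coding gene on the same strand. Among the 13 are MRPL33 (with BABAM2), MRPS24 (with URGCP-MRPS24), MRPS17 (with NIPSNAP2), MRPL12, MRPL46 and MRPS28. For members with pseudogenes or overlaps the authors' counting could split reads between copies or neighbours. Of the members described most closely, MRPL44 lies at chr2:223957463-223967714, MRPL24 at chr1:156737303-156741590, MRPL49 at chr11:65122183-65127371, MRPS11 at chr15:88467453-88480776, MRPL17 at chr11:6680385-6683340 and MRPS27 at chr5:72214953-72321717 (GRCh38, as deposited).

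Before irradiation the edited lines differed from WT in a minority of members, in both directions. In CSB_KO 8 of 78 were higher and 13 lower than in WT at an edgeR adjusted p under 0.05 over 15470 genes, where 19.1% and 15.7% of all genes were. STK19_KO1 had 12 higher and 19 lower, against 29.5% and 19.2% of all genes. For STK19_KO2 the counts were 11 and 17, against 26.6% and 20.7%. The split depends on the scaling: upper-quartile scaling gave 6 and 18 for CSB_KO, then 9 and 36 for STK19_KO1 and 8 and 25 for STK19_KO2. The median log2 difference of the members was -0.07 in CSB_KO, -0.05 in STK19_KO1 and -0.03 in STK19_KO2, beside 0.00, 0.05 and 0.03 for all genes.

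The largest difference at 0 h in each edited line was in a large-subunit gene. Several such genes are given here, and MRPS6, MRPS25 and MRPS31, given below, ranked among the largest too. MRPL54, a large-subunit protein specific to mitochondria, stood at 35.96, 35.3 and 36.8 CPM in CSB_KO. The STK19 clones had 39.2, 39.1 and 39.4 CPM (STK19_KO1) and 36.7, 41.6 and 40.4 CPM (STK19_KO2), and WT had 22.2, 25.8 and 25.3 CPM. All edited libraries lay above all WT libraries (log2 0.56 ± 0.08, 0.68 ± 0.08 and 0.70 ± 0.08, SE). MRPL4, a homologue of a bacterial protein of the same name, was also higher in all 3 (log2 0.51, 0.59 and 0.49), but the 3 comparisons share the WT libraries. MRPL36, one of the smallest ribosomal proteins, stood at 28.96, 32.1 and 30.8 CPM in STK19_KO1 and 28.7, 26.6 and 30.5 in STK19_KO2, against 46.7, 48.4 and 51.6 in CSB_KO and 51.02, 47.1 and 47.8 in WT. Both STK19 clones lay below every library of the other lines (log2 against WT -0.67 ± 0.07 and -0.77 ± 0.07). Other genes set the clones apart from each other. MRPL39 stood at 32.4, 31.5 and 31.98 CPM in STK19_KO2, against 67.5, 62.9 and 66.5 in STK19_KO1 and 57.5, 50.99 and 51.6 in WT. MRPL45, which lies near the tunnel exit and helps to hold the ribosome at the inner membrane, stood at 65.2, 70.1 and 67.3 CPM in CSB_KO and 64.1, 66.4 and 65.8 in STK19_KO2, against 42.05, 40.4 and 41.1 in STK19_KO1 and 46.4, 43.2 and 42.8 in WT. The low group of each gene did not overlap the high one.

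The remaining members fixed for naming at 0 h are given for each line where they ranked highest or lowest. Other lines could share the difference. MRPS31 (log2 0.44) was higher in CSB_KO than in WT, and MRPL34 (-0.42), MRPL20 (-0.39), MRPL11 (-0.35) and MRPS15 (-0.30) were lower. In STK19_KO1, MRPL47 (0.52) and MRPS25 (0.47) were higher and MRPL40 (-0.71), MRPL52 (-0.55) and MRPL10 (-0.54) lower. In STK19_KO2, MRPL47 (0.45) was higher and MRPL39 (-0.74), MRPS6 (-0.65) and MRPL18 (-0.52) lower. Each passed the edgeR test at an adjusted p of at most 6.41e-05, the value of MRPL47 in STK19_KO2. MRPS15 stood at 29.2, 29.3 and 28.8 CPM per kb in CSB_KO, STK19_KO1 and STK19_KO2, against 36.1 in WT. MRPS31 stood at 17.3, 16.7 and 16.5 in the same order, against 12.8 in WT. MRPL52 stood at 13.03, 9.77 and 10.03, against 14.25 in WT, so it was low in both STK19 clones. MRPL10 was low in STK19_KO1 alone, at 18.9, 12.3 and 21.5, against 18.01 in WT.

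At 3 h after UV most members were higher than at 0 h in every line. Of the 78, 53 were higher and 3 lower in CSB_KO, where 32.0% and 29.3% of all genes were (edgeR adjusted p under 0.05). The counts were 60 and 2 in STK19_KO1 (29.9% and 30.6% of all genes), 49 and 2 in STK19_KO2 (29.1% and 28.5%) and 69 and 1 in WT (33.6% and 28.8%). The median log2 change of the members was 0.30, 0.34, 0.25 and 0.40 in CSB_KO, STK19_KO1, STK19_KO2 and WT, and that of all genes was 0.06, 0.03, 0.05 and 0.06. In all 4 lines 42 members were higher and 1 lower, where 18.5% and 20.4% of all genes were. The WT values lean on replicate 1: without that library at 3 h, 60 members were higher and 2 lower, with a median of 0.31. The STK19_KO1 count of 62 ran from 39 to 67 when libraries were left out, and was 39 without replicate 3.

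Among the members with the largest mean change at 3 h, MRPL49, a mitochondria-specific large-subunit protein, varied least between lines. It had 78.8, 79.9 and 79.4 CPM at 3 h and 51.6, 50.7 and 49.8 at 0 h in CSB_KO, and 87.6, 92.5 and 92.8 at 3 h and 54.1, 58.2 and 54.4 at 0 h in WT. No library at 3 h overlapped those at 0 h (log2 0.65 ± 0.05, 0.64 ± 0.05, 0.61 ± 0.05 and 0.71 ± 0.05 in CSB_KO, STK19_KO1, STK19_KO2 and WT). MRPL33 had the largest mean change, 0.68, 0.62, 0.46 and 0.92 in the same order, but its WT libraries stood at 57.6, 30.1 and 31.5 CPM at 3 h against 22.97, 20.5 and 19.3 at 0 h, the first of them far above the others. MRPL32 (0.44 to 0.67), MRPL17 (0.43 to 0.70), MRPS17 (0.48 to 0.67) and MRPS11 (0.46 to 0.68), all homologues of bacterial proteins, were higher in all 4 lines.

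MRPS27, a pentatricopeptide-repeat protein of the small subunit, was the member lower in all 4 lines. In CSB_KO it had 85.4, 89.02 and 90.6 CPM at 3 h and 112, 112 and 113 at 0 h. STK19_KO1 had 81.4, 73.8 and 85.3 CPM at 3 h and 117, 120.1 and 121 at 0 h, and STK19_KO2 78.9, 77.9 and 84.4 at 3 h and 123, 127 and 129.8 at 0 h. WT had 107, 92.9 and 90.3 CPM at 3 h and 118, 117 and 119 at 0 h. The 3 h libraries lay below the 0 h libraries in each line (log2 -0.35 ± 0.05, -0.58 ± 0.05, -0.65 ± 0.05 and -0.29 ± 0.05). MRPL34 (-0.09 to -0.01) and MRPL14 (-0.12 to 0.13) passed the test in no line. MRPS31 was lower in STK19_KO1 (-0.19) and higher in WT (0.16, adjusted p = 0.0466 by edgeR, lost when any of the 3 replicate numbers was left out). MRPS30, whose protein sits in the large subunit despite its symbol, was higher in the STK19 clones alone among the calls (0.12 and 0.21) and had 0.01 in WT. MRPL44, an RNase III-like protein of the large subunit, was lower in CSB_KO with 26.96, 25.99 and 25.9 CPM at 3 h and 34.00, 34.97 and 36.8 at 0 h (log2 -0.42 ± 0.07), and in WT it had 0.26, which no longer passed without replicate 1.

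At 4 h in DMSO most members were again higher than at 0 h. Against 0 h, 55 members were higher and 4 lower in CSB_KO (33.6% and 30.2% of all genes). STK19_KO1 had 50 and 3 (27.9% and 30.0%), STK19_KO2 had 51 and 4 (31.6% and 29.8%) and WT had 60 and 3 (35.0% and 31.3%). The median log2 changes were 0.33, 0.26, 0.26 and 0.40, and 41 members were higher and 1 lower in all 4 lines, where 18.9% and 21.6% of all genes were. Without the 5 libraries that lay apart, WT had 64 and 3, with a median of 0.38. MRPL49 (0.66 to 0.83), MRPL10 (0.58 to 0.79), which anchors the stalk, MRPL17 (0.54 to 0.79), MRPL55 (0.50 to 0.76), MRPS17 (0.47 to 0.67) and MRPL2 (0.46 to 0.67) had the largest mean changes and were higher in every line. MRPS27 was lower again in all 4 (log2 -0.76 to -0.40). MRPL34 was lower in the 3 edited lines (-0.17, -0.25 and -0.14) and MRPS28 in STK19_KO2 (-0.23), while MRPL39 and MRPL45 passed in no line. Under upper-quartile scaling MRPL34 and MRPS28 no longer passed in these edited lines. MRPS31 was lower in STK19_KO1 (-0.17), which did not hold under that scaling either.

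**Figure D2:**
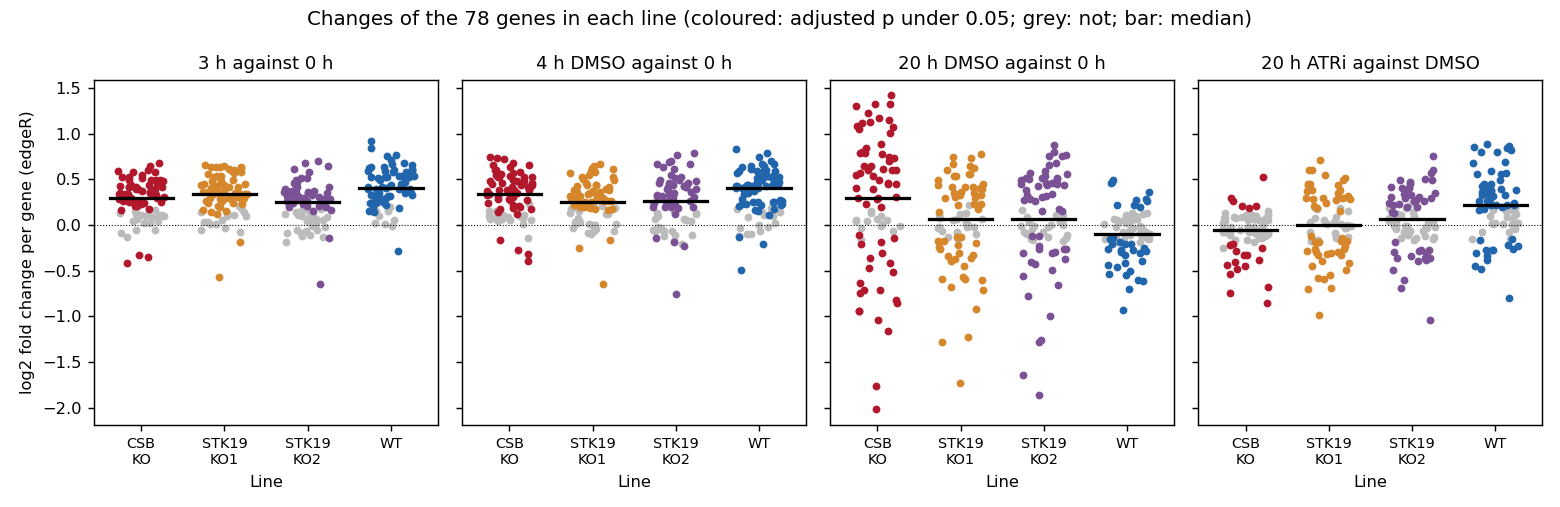
log2 fold change of each of the 78 genes (points) by line for 4 comparisons, in colour where the edgeR adjusted p was under 0.05 and in grey where it was not, with the median as a bar. The points shift up together at 3 h and 4 h, and at 20 h they spread from -2.02 to 1.42 in CSB_KO and from -0.93 to 0.50 in WT.

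At 20 h in DMSO the members no longer moved as one, and the lines differed in more of them than before. In CSB_KO 43 were higher and 21 lower than at 0 h, where 38.3% and 40.5% of all genes were. STK19_KO1 had 33 higher and 25 lower (32.1% and 37.0%), STK19_KO2 had 35 and 21 (33.8% and 37.8%), and WT had 10 and 25 (30.0% and 25.4%). Upper-quartile scaling gave 39 and 18 in STK19_KO1. The median log2 change was 0.29 in CSB_KO, 0.06 in STK19_KO1, 0.06 in STK19_KO2 and -0.10 in WT, beside -0.01 and 0.05 for all genes in CSB_KO and WT. In CSB_KO 17 members, or 21.8%, were called with a change of at least 2-fold, where 37.1% of all genes were, and in WT 0 were, against 11.5%. The 17, named after their values were seen, were MRPS28, MRPS27, MRPL3 and MRPL1, which fell, and MRPL38, MRPL33, MRPL41, MRPL55, MRPS12, MRPL32, MRPL49, MRPS17, MRPL44, MRPS24, MRPL10, MRPL51 and MRPS11, which rose.

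Of the members that rose at 20 h, MRPS11, a small-subunit homologue of a bacterial platform protein, had 108, 112 and 109.5 CPM at 20 h and 42.7, 40.9 and 39.7 at 0 h in CSB_KO. In WT it had 55.8, 61.8 and 54.2 at 20 h and 43.1, 45.1 and 45.7 at 0 h. Both lines rose without overlap, CSB_KO by more (log2 1.42 ± 0.06 and 0.36 ± 0.06), with 0.56 and 0.66 in the STK19 clones. Its divergent neighbour MRPL46 rose by 0.77, 0.40, 0.57 and 0.22 in CSB_KO, STK19_KO1, STK19_KO2 and WT. MRPL49 (1.14, 0.78, 0.88 and 0.50) and MRPL10 (1.32, 0.64, 0.80 and 0.47) rose in every line too.

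Other members rose in the edited lines and not beyond their spread in WT. MRPL44 had 84.2, 81.6 and 80.7 CPM at 20 h and 34.00, 34.97 and 36.8 at 0 h in CSB_KO (log2 1.22 ± 0.07). STK19_KO1 had 53.8, 54.1 and 59.6 CPM at 20 h and 33.3, 33.2 and 34.3 at 0 h, and STK19_KO2 54.8, 56.9 and 56.8 at 20 h and 33.2, 32.1 and 34.2 at 0 h. WT had 28.1, 31.5 and 29.7 CPM at 20 h and 32.3, 31.7 and 32.1 at 0 h. The 20 h libraries lay above all 0 h libraries in the edited lines and below them in WT, where the change did not pass (-0.11 ± 0.07, edgeR adjusted p = 0.223). MRPL51, a mitochondria-specific large-subunit protein, had log2 1.33, 0.66 and 0.52 in CSB_KO, STK19_KO1 and STK19_KO2 and 0.12 in WT (edgeR adjusted p = 0.259). For MRPL32 the values were 1.13, 0.63, 0.77 and 0.11.

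Of the members that fell at 20 h in all 4 lines, MRPL24, a homologue of a bacterial protein near the tunnel exit, fell least in CSB_KO and most in the STK19 clones. In CSB_KO it had 23.5, 25.9 and 25.2 CPM at 20 h and 43.9, 44.5 and 43.7 at 0 h. STK19_KO1 had 13.4, 12.1 and 13.2 CPM at 20 h and 44.4, 44.7 and 39.9 at 0 h, and STK19_KO2 13.3, 14.1 and 14.2 at 20 h and 50.3, 48.3 and 52.8 at 0 h. WT had 24.9, 28.1 and 25.7 CPM at 20 h and 54.7, 47.8 and 47.7 at 0 h. The 20 h values of both STK19 clones lay below those of the other lines (log2 -0.82 ± 0.06, -1.73 ± 0.07, -1.86 ± 0.07 and -0.93 ± 0.06). MRPS28, a small-subunit protein and the longest member by RefSeq span, had 5.51, 4.40 and 4.83 CPM at 20 h and 20.5, 20.3 and 17.97 at 0 h in CSB_KO, and 14.4, 13.5 and 12.9 at 20 h and 21.6, 21.1 and 23.2 at 0 h in WT. It fell furthest in CSB_KO (log2 -2.02 ± 0.10) and least in WT (-0.70 ± 0.09). MRPS27 had 32.3, 32.3 and 34.8 CPM at 20 h in CSB_KO and 78.9, 75.97 and 76.4 in WT, log2 -1.76 and -0.61 against the 0 h values above. MRPL1, of the mobile L1 stalk (-1.04 to -0.55), MRPL3 (-1.17, -0.60, -0.78 and -0.28) and MRPL48 (-0.30, -0.92, -1.26 and -0.60) fell as well. For MRPL48 the call in CSB_KO did not hold under the other scalings, where it was -0.22 and -0.20.

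The stalk pair and the S18 homologues show how related members parted. MRPL12 had 146, 129 and 136 CPM at 20 h and 194, 199 and 194 at 0 h in CSB_KO, and 167, 187 and 162 at 20 h and 204, 256 and 253 at 0 h in WT. It fell in every line (log2 -0.52 ± 0.09, -0.57 ± 0.09, -0.50 ± 0.09 and -0.47 ± 0.09), while its partner MRPL10 rose in every line. MRPS18A, MRPS18B and MRPS18C are 3 homologues of 1 bacterial protein, the first sits in the large subunit, and the count of mitochondria-specific members above holds the first pair. MRPS18A fell in CSB_KO, with 27.1, 31.4 and 27.2 CPM at 20 h and 43.3, 48.98 and 40.9 at 0 h (log2 -0.63 ± 0.07), and had 0.06 in WT. MRPS18B had 0.04 in CSB_KO, fell in STK19_KO1 (-0.18) and STK19_KO2 (-0.12), both lost under upper-quartile scaling, and rose in WT (0.19). MRPS18C rose in the 3 edited lines (0.41, 0.29 and 0.32) and had 0.08 in WT.

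**Figure D3:**
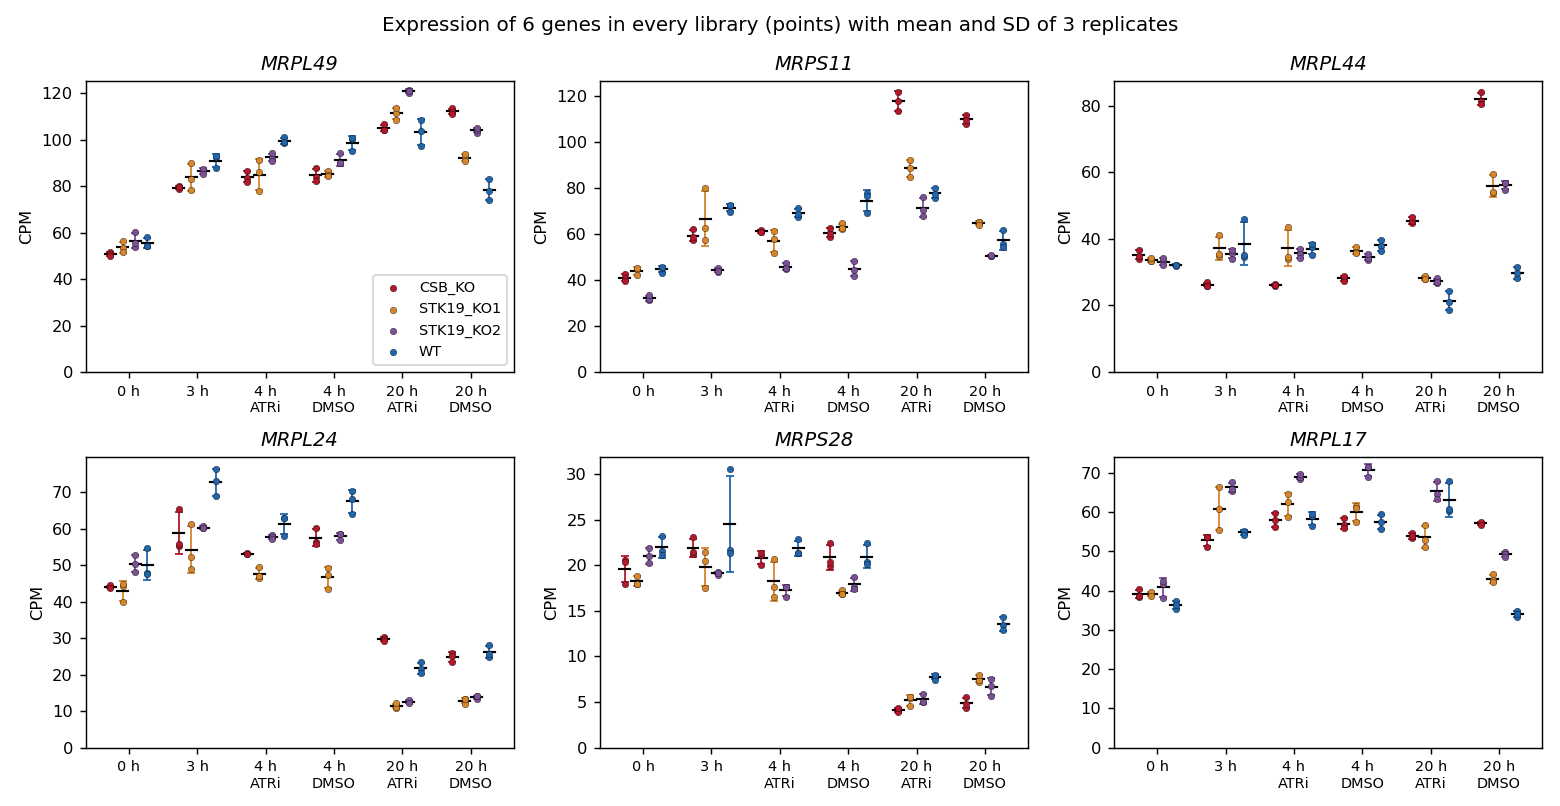
CPM of 6 members in every library (points), with the mean (bar) and SD of 3 replicates, by labelled time and treatment and by line. MRPL44 at 20 h DMSO stands near 82 CPM in CSB_KO and near 30 CPM in WT, and drops with ATRi in each line, while MRPL17 in WT is higher with ATRi than with DMSO at 20 h.

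CSB_KO and WT share no library in their 20 h comparisons, so their calls can be set side by side. Members that rose in both numbered 8, which is 18.6% of the 43 in CSB_KO and 80.0% of the 10 in WT, where over all genes the shares were 48.0% and 61.3%. Members that fell in both numbered 14, which is 66.7% of the 21 in CSB_KO and 56.0% of the 25 in WT, against 45.8% and 73.0% over all genes. A further 5 rose in CSB_KO and fell in WT, or 11.6% and 20.0% of those lists (8.55% and 12.9% over all genes). The 1 that fell in CSB_KO and rose in WT made up 4.76% of the 21 and was 1 of the 10 (16.0% and 21.6% over all genes). These shares were not tested. Named after their values were seen, the 5 were MRPL14, MRPL23, MRPL43, MRPL58 (the peptidyl-tRNA hydrolase ICT1, built into the large subunit) and MRPS34, and the 1 was MRPS31.

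The test of the difference itself gave many members at 20 h. The change from 0 h was larger (more positive) in CSB_KO than in WT for 47 members and smaller for 13, where 30.9% and 36.3% of all genes were (edgeR interaction, adjusted p under 0.05), with a median difference of 0.43 beside -0.04 for all genes. For the mean of the STK19 clones against WT the counts were 35 and 8 (22.8% and 32.7%), with a median of 0.17 beside -0.09. MRPL44 had the largest positive difference in both, 1.33 ± 0.10 in CSB_KO and 0.85 ± 0.09 in the STK19 clones. In CSB_KO it was followed by MRPS24 (1.31) and MRPS17 (1.31), small-subunit homologues of bacterial proteins, and MRPS28 (-1.32), MRPS27 (-1.15) and MRPS31 (-1.14) had the largest negative ones. MRPL24 fell more in the STK19 clones than in WT (-0.86 ± 0.08), and for CSB_KO the difference was 0.11 ± 0.09 (edgeR adjusted p = 0.285).

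Early differences between lines were fewer and depended on single libraries. At 3 h, 0 members had a larger and 8 a smaller change in CSB_KO than in WT (1.48% and 8.30% of all genes), and 2 and 23 in the STK19 clones (10.1% and 17.1%). At 4 h in DMSO the counts were 1 and 4 in CSB_KO (5.09% and 11.3%) and 2 and 13 in the STK19 clones (11.9% and 14.7%). Upper-quartile scaling gave 5 and 9 at 3 h and 3 and 3 at 4 h for the STK19 clones, and scaling by the median of ratios gave 0 and 5 at 4 h for CSB_KO. Leaving out libraries gave 1 to 20 calls in place of 8 for CSB_KO at 3 h, with 3 calls without WT 3 h replicate 1, 20 without replicate 2 and 16 without replicate 3 of that group, and 4 or 5 without replicate 2 or 3 of WT 0 h, CSB_KO 0 h or CSB_KO 3 h. For the STK19 clones it gave 7 to 34 in place of 25, with 9 without WT 3 h replicate 1, 13 without WT 0 h replicate 2 and 15 without WT 0 h replicate 3. At 4 h the ranges were 1 to 10 for CSB_KO, with 3 without CSB_KO 0 h replicate 2, and 3 to 23 for the STK19 clones. MRPL44 had the lowest difference in CSB_KO at both times (log2 -0.69 ± 0.10 and -0.57 ± 0.10).

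Between 4 h and 20 h in DMSO most members fell in WT, and as many rose as fell in CSB_KO. CSB_KO had 34 higher and 34 lower at 20 h than at 4 h (34.6% and 37.2% of all genes). The STK19 clones had 11 and 37 (STK19_KO1, 32.3% and 33.4%) and 13 and 41 (STK19_KO2, 31.6% and 34.9%). WT had 3 higher and 66 lower (34.1% and 35.5%), with a median log2 change of -0.43. In all 4 lines 23 members were lower and 2 higher, where 12.1% and 10.2% of all genes were. MRPL44 had 84.2, 81.6 and 80.7 CPM at 20 h and 27.98, 27.5 and 28.9 at 4 h in CSB_KO (log2 1.55 ± 0.07), and 28.1, 31.5 and 29.7 at 20 h and 39.7, 38.02 and 36.4 at 4 h in WT (-0.35 ± 0.07). The 2 lines moved in opposite directions, each without overlap. MRPL34 was higher in all 4 lines (0.96, 0.81, 0.66 and 0.17), as was MRPS30 (0.55, 0.22, 0.35 and 0.18). MRPL18 (0.55, 0.67, 0.80), MRPL16 (0.26, 0.54, 0.44) and MRPL14 (0.22, 0.26, 0.40) were higher in the edited lines, and in WT stood at -0.03, -0.25 (lower) and -0.05. The deepest falls were in MRPL24 (-2.06 to -1.21), MRPS28 (-2.10 to -0.63), MRPL48 (-1.31 to -0.68), MRPL1 (-1.19 to -0.73), MRPS25 (-1.04 to -0.26) and MRPL3 (-1.28 to -0.43), which were lower in every line.

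The inhibitor changed few genes at 4 h and 1 member in 1 line. In CSB_KO MRPS25, a small-subunit protein that is mutated in a mitochondrial encephalomyopathy, had 175, 183 and 179 CPM with ATRi and 140.4, 138 and 141 with DMSO. The ATRi libraries all lay above the DMSO libraries (log2 0.36 ± 0.04, edgeR adjusted p = 1.1e-08), and the change differed from that in WT (interaction 0.40 ± 0.06, where 2.33% of all genes were higher and 0.873% lower by the same test). Thus 1 member was higher and 0 lower in CSB_KO (2.70% and 0.278% of all genes). There were 0 either way in STK19_KO1 (0.776% and 0.129%), STK19_KO2 (0.194% and 0.0259%) and WT (2.03% and 0.627%) by edgeR. At an unadjusted p under 0.05 there were 1 in CSB_KO, 6 in STK19_KO1, 1 in STK19_KO2 and 3 in WT, where 11.9%, 8.82%, 5.46% and 13.5% of all genes were. DESeq2 called 1 in WT and 0 in either STK19 clone, and 3.30% of all genes in WT. In WT 12 members passed without the 5 libraries that lay apart, as did 13.6% of all genes. For the STK19 clones against WT 0 members differed either way (0.00646% and 0.00% of all genes).

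Of the other members with the largest mean changes at 4 h, MRPL50 (log2 0.05 to 0.10), MRPL58 (0.00 to 0.13), MRPL15 (at most 0.12), MRPS17 (-0.06 to 0.15) and MRPL45 (-0.05 to 0.18) did not pass in any line. Neither did those with the smallest, MRPL41 (-0.20 to -0.03), MRPL23 (-0.14 to -0.04), MRPS24 (-0.11 to -0.02), MRPL36 (-0.15 to -0.01), MRPL51 (-0.14 to 0.01) and MRPL53 (-0.17 to 0.00).

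At 20 h the members called between ATRi and DMSO were more often higher than lower with ATRi in WT. In CSB_KO they were more often lower than higher, as were all genes. There 6 were higher and 15 lower with ATRi than with DMSO, where 14.1% and 17.5% of all genes were. Upper-quartile scaling gave 8 and 14 in CSB_KO, and leaving out libraries or replicates gave 14 to 30 calls in place of 21. Without the 5 libraries that lay apart, none of which is in either CSB_KO group, the counts were 11 and 24. In that fit 41.3% of all genes were called in either direction. STK19_KO1 had 26 higher and 27 lower (31.5% and 30.1%), and STK19_KO2 had 30 and 16 (30.5% and 27.7%), or 26 and 24 under upper-quartile scaling. WT had 43 higher and 14 lower (30.2% and 33.7%), with a median of 0.22 beside -0.03 for all genes, and under upper-quartile scaling 30 and 18, with a median of 0.10. The change was smaller in CSB_KO than in WT for 41 members and larger for 3 (26.9% and 24.7% of all genes), with a median difference of -0.29; under upper-quartile scaling 25 were smaller and 14 larger. For the STK19 clones 32 were smaller and 4 larger (20.2% and 20.7%), or 26 and 7 under that scaling, and 19 to 42 in place of 36 when libraries were left out.

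MRPL17, a homologue of a bacterial large-subunit protein, had the largest rise in WT and none beyond the test in CSB_KO. It had 54.8, 53.3 and 53.98 CPM with ATRi and 57.2, 57.6 and 56.7 with DMSO in CSB_KO, and 68.03, 60.4 and 60.7 with ATRi and 33.3, 34.8 and 34.1 with DMSO in WT. The CSB_KO groups lay close together, ATRi below DMSO (-0.08 ± 0.05, edgeR adjusted p = 0.184). The WT groups lay far apart (log2 0.89 ± 0.05, edgeR adjusted p = 4.09e-24), and the difference between the lines was -0.97 ± 0.07. With ATRi, the WT level stood above its 0 h level of 35.3, 37.3 and 36.4 CPM. MRPL10 (0.18, 0.72, 0.60 and 0.85) and MRPS25 (0.52, 0.55, 0.75 and 0.26) were higher in CSB_KO, STK19_KO1, STK19_KO2 and WT. MRPL15 (0.60, 0.57 and 0.80), MRPL32 (0.51, 0.49 and 0.79) and MRPS2 (0.37, 0.27 and 0.87) were higher in the STK19 clones and WT, and stood at 0.08, -0.06 and 0.05 in CSB_KO without passing. MRPS30, with 159.7, 153 and 162 CPM with ATRi and 89.3, 89.7 and 86.9 with DMSO in WT, and MRPL36 also differed most between CSB_KO and WT (-0.95 ± 0.07 and -0.87 ± 0.10).

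MRPL44 was lower with ATRi in every line. In CSB_KO it had 44.6, 45.4 and 46.5 CPM with ATRi and 84.2, 81.6 and 80.7 with DMSO. STK19_KO1 had 27.9, 28.98 and 27.9 CPM with ATRi and 53.8, 54.1 and 59.6 with DMSO, and STK19_KO2 26.7, 28.2 and 26.99 with ATRi and 54.8, 56.9 and 56.8 with DMSO. WT had 24.5, 18.8 and 21.04 CPM with ATRi and 28.1, 31.5 and 29.7 with DMSO. No groups overlapped (log2 -0.85 ± 0.07, -0.98 ± 0.07, -1.04 ± 0.07 and -0.48 ± 0.07). MRPL44 was the member that rose most at 20 h relative to WT and the one that ATRi lowered most on average. Both rankings use the same 20 h DMSO libraries, with opposite sign, so they are not independent of each other. MRPL34 (-0.75 to -0.28), MRPS22 (-0.70 to -0.34), MRPL47 (-0.58 to -0.45) and MRPS9 (-0.49 to -0.27) were lower in all 4 lines too. MRPS28 was lower in the STK19 clones (-0.55 and -0.35) and in WT, with 7.88, 7.45 and 7.97 CPM with ATRi and 14.4, 13.5 and 12.9 with DMSO (-0.80 ± 0.10), and had -0.25 in CSB_KO (edgeR adjusted p = 0.084). MRPL12 (0.32), MRPS18A (0.43) and MRPS18C (0.36) were higher with ATRi in WT, and MRPS18A was lower in STK19_KO1 (-0.28). MRPS18B was higher in all 4 lines (0.20 to 0.45). In all, 4 members were higher and 5 lower in every line, where 8.16% and 8.78% of all genes were.

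**Figure D4:**
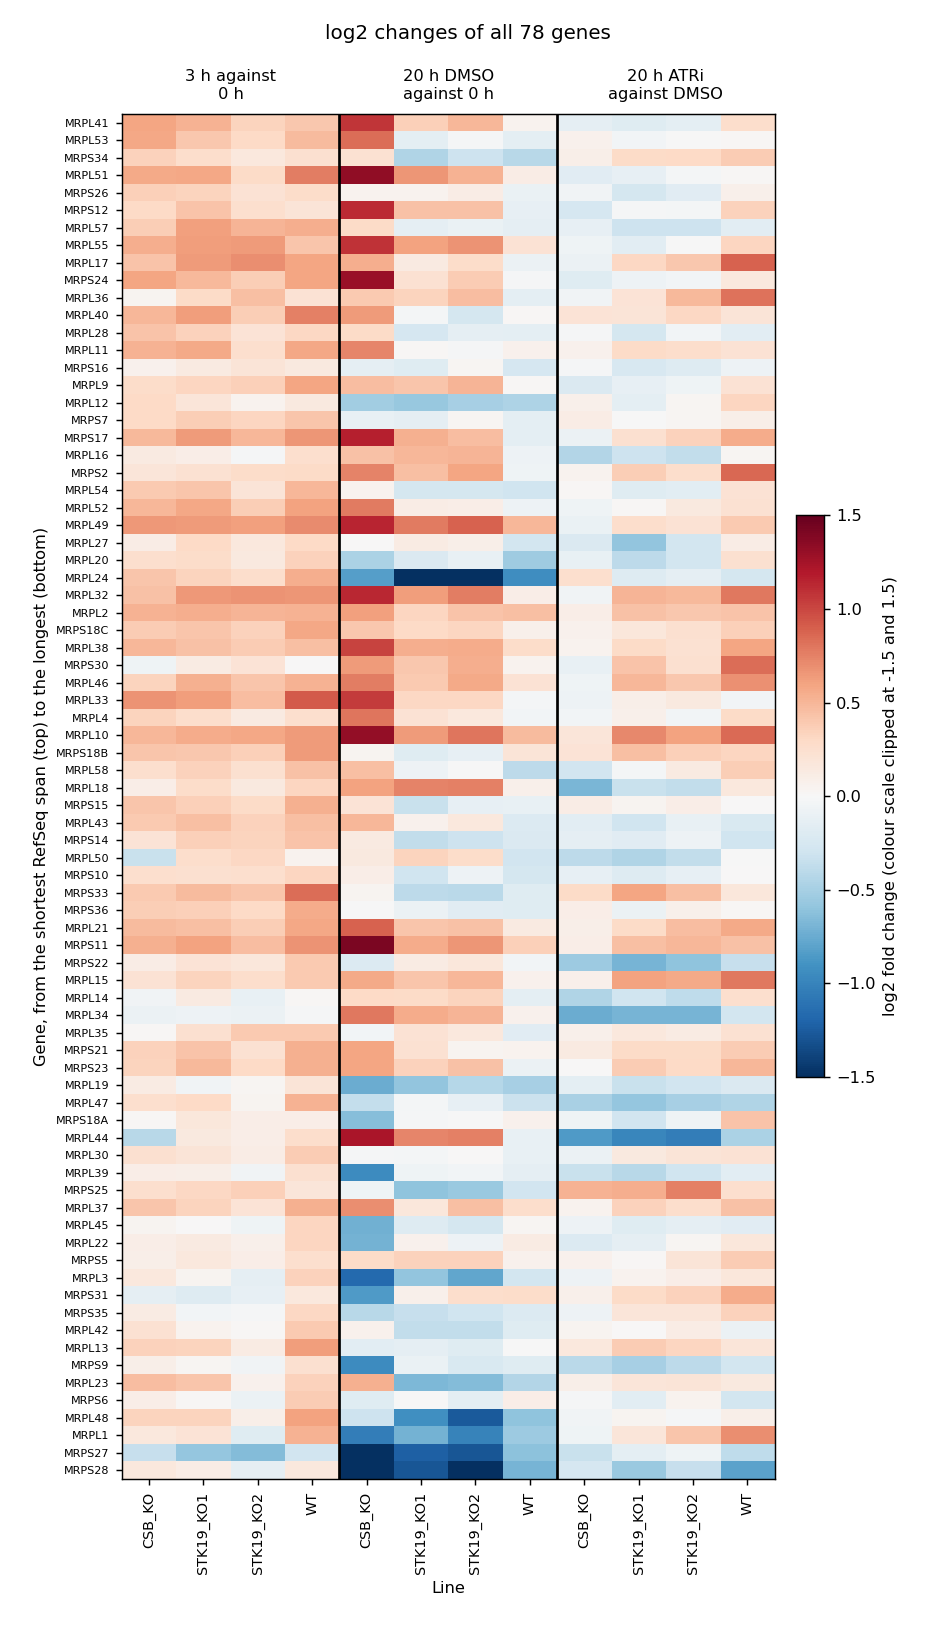
log2 fold changes of all 78 genes (rows, from the shortest RefSeq span at the top to the longest at the bottom) in 4 lines for 3 comparisons. Red is higher and blue lower in the group named first, and the darkest blue at 20 h is in MRPS28 in CSB_KO (-2.02) and STK19_KO2 (-1.65), MRPS27 in CSB_KO (-1.76) and MRPL24 in the STK19 clones (-1.73 and -1.86).

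The members are short beside other genes, and the change at 20 h ran with gene span. By RefSeq their median span was 8.64 kb and 60 were under 20 kb, against a median of 30.0 kb for all genes tested. In CSB_KO the median log2 change at 20 h was 0.50 for the 22 members under 5 kb, 0.61 for 19 of 5 to 10 kb, 0.13 for 19 of 10 to 20 kb, -0.42 for 11 of 20 to 50 kb and -0.94 for 7 over 50 kb. All genes of the same classes had 0.84, 0.66, 0.53, 0.08 and -0.90. In WT the medians were -0.11, 0.05, -0.12, -0.01 and -0.55 for members, and 0.20, 0.20, 0.18, 0.11 and -0.19 for all genes. The order depends on the source of the spans. By the deposited coordinates, which are longer for some members, the member medians in CSB_KO were 0.46, 0.61, 0.41, -0.56 and -0.25, against 0.82, 0.66, 0.53, 0.12 and -0.81 for all genes, so the 10 members over 50 kb lay above the genes of their class. In WT those 10 had -0.24, against -0.17 for all genes. Spearman's rho between span and change, across genes that are not independent replicates, was -0.52 in CSB_KO, -0.33 in STK19_KO1, -0.38 in STK19_KO2 and -0.15 in WT over the 78 members, and -0.58, -0.51, -0.53 and -0.43 over all genes with a RefSeq span. The 3 longest by RefSeq, MRPS28 at 111.5 kb, MRPS27 at 100.8 kb and MRPL1 at 90.0 kb, fell in every line. MRPL24, at 5.41 kb, fell in every line as well, and MRPL44, at 16.9 kb, rose in the edited lines, so span did not order them all. With ATRi against DMSO at 20 h in WT the member medians were 0.22, 0.33, 0.17, 0.18 and -0.27 over the same classes, and those of all genes 0.02, 0.01, 0.05, 0.02 and -0.17. The classes over 20 kb hold 11 and 7 members.

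**Figure D5:**
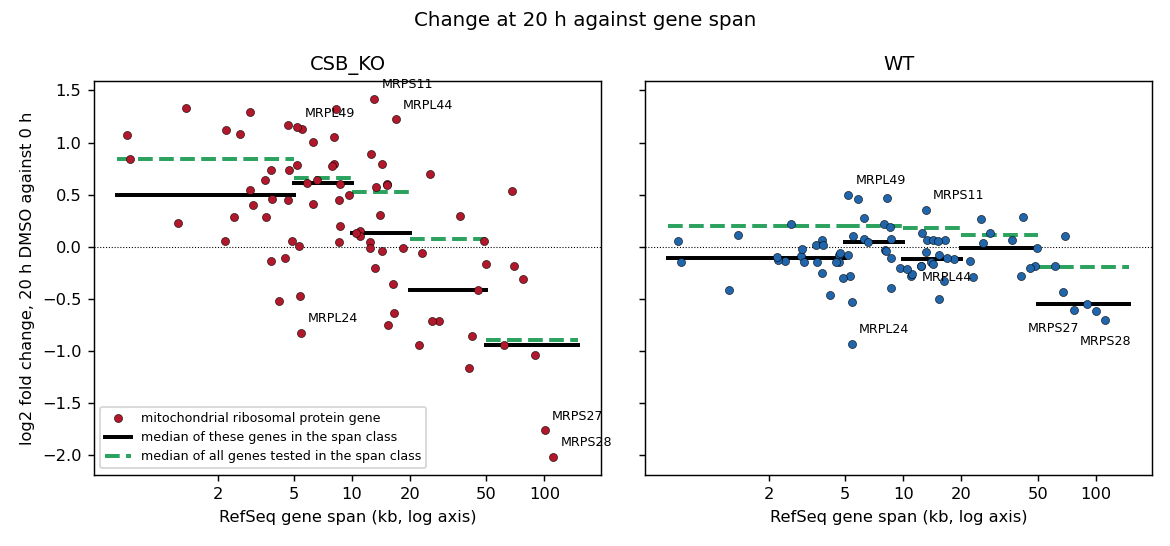
log2 change of each member at 20 h DMSO against 0 h (points) over its RefSeq span on a log axis, in CSB_KO and WT, with the median of the members (black) and of all genes tested (dashed green) in each span class. In CSB_KO the member medians go from 0.50 under 5 kb to -0.94 over 50 kb, and in WT they stay between -0.12 and 0.05 up to 50 kb and reach -0.55 above.

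Subunit, origin and promoter motif split the members as follows. At 20 h in CSB_KO 38.3% of all genes were higher and 40.5% lower. There 31 of 49 large-subunit members were higher and 11 lower (median 0.46). Of 29 small-subunit members 12 were higher and 10 lower (median 0.05), which is nearer the shares of all genes. Subunits go by symbol here, so MRPS18A, MRPS30 and MRPS36 count as small although their proteins sit elsewhere. Homologues of bacterial proteins were 27 higher and 13 lower of 46 (median 0.35), and mitochondria-specific members 16 and 8 of 32 (median 0.19). In WT with ATRi at 20 h the medians were 0.22 for the large subunit and 0.26 for the small. Members with an ETS motif in the promoter had a median change of 0.45 at 3 h in WT, against 0.38 for the 47 without, and at 20 h in CSB_KO 0.10 against 0.29. None of these differences was tested. The 5 mitoribosome genes with other names (DAP3, PTCD3, CHCHD1, AURKAIP1 and GADD45GIP1) went 4 higher and 0 lower at 3 h in WT. Of all genes 33.6% were higher and 28.8% lower in that comparison. At 20 h in CSB_KO 4 of the 5 were higher and 1 lower. PTCD3, a pentatricopeptide-repeat protein like MRPS27, had log2 -1.35 there, and GADD45GIP1 had 1.11.

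Other genes of the mitochondrion and of the cytosolic ribosome are given beside the members. The lists were written with earlier results of these data known, and their counts are descriptions. Of all genes at 20 h DMSO, 38.3% were higher and 40.5% lower than at 0 h in CSB_KO, and 30.0% and 25.4% in WT. The shares were 32.1% and 37.0% in STK19_KO1 and 33.8% and 37.8% in STK19_KO2. Cytosolic ribosomal protein genes were higher at 20 h in 73 of 73 in CSB_KO (median 1.21), 72 in STK19_KO1 (0.39) and 65 in STK19_KO2 (0.37), and in WT 7 were higher and 3 lower (0.01). The median of the mitochondrial members in CSB_KO was 0.29, and the 2 lists were not tested against each other. Nuclear genes of the respiratory chain, whose products join those made by the mitoribosome, were 73 higher and 7 lower of 84 in CSB_KO (0.92) and 11 and 21 in WT (-0.02). The 13 protein genes of mitochondrial DNA were 5 higher and 0 lower in CSB_KO at 20 h (median 0.25) and 0 higher and 12 lower in WT (-0.84). Only polyadenylated RNA was sequenced, which mitochondrial transcripts carry in short tails.

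The factors that build and run the mitoribosome went in both directions, as all genes did. At 20 h in CSB_KO 38.3% of all genes were higher and 40.5% lower than at 0 h. Of 25 assembly factors 10 were higher and 10 lower there (median -0.04), near those shares. MRM3, an rRNA methyltransferase, rose by 1.44 in CSB_KO, and TFB1M, a methyltransferase of the small-subunit rRNA, had -1.60. With ATRi in WT at 20 h 18 of the 25 were higher and 5 lower (median 0.37). Of all genes 30.2% were higher and 33.7% lower there, and MRM3 rose by 1.06. Of 16 translation factors 5 were higher and 10 lower at 20 h in CSB_KO (-0.49). MTIF2, the initiation factor that brings the first tRNA, had -1.06, and SLIRP, which binds mitochondrial mRNAs, had 1.00. Of 17 mitochondrial aminoacyl-tRNA synthetases 5 were higher and 10 lower in CSB_KO (-0.63). The counts were 3 and 11 in both STK19 clones (-0.64 and -0.77) and 4 and 10 in WT (-0.19), with WARS2 at -2.10 in CSB_KO. Over all genes the shares were 32.1% and 37.0% in STK19_KO1, 33.8% and 37.8% in STK19_KO2, and 30.0% and 25.4% in WT. Of 14 genes of mitochondrial transcription and its nuclear regulators, 1 was higher and 6 lower at 3 h in WT. In that comparison 33.6% of all genes were higher and 28.8% lower. The gene of the regulator NRF1 had -2.16 there and -1.66 at 20 h in CSB_KO, and TFAM, which packages mitochondrial DNA, had 0.52 and 1.01.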

How the data were processed

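The authors deposited 1 table of expected counts per gene in 72 libraries of polyadenylated RNA. Reads were aligned with STAR and counted with RSEM on GRCh38, per the submitters' processing notes, whose versions are not given in the sources used here; the deposited expected counts are whole numbers. A directional kit was used, per the labels' protocols. Bigwig signal was not used.

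Library totals were 36.5 to 212.9 M counts (median 56.3 M). Genes passing filterByExpr (minimum count 10, minimum total 15) were kept, 15470 of 19324. One edgeR 4.0.16 quasi-likelihood fit in R 4.3.3 (limma 3.58.1) held 72 libraries and 24 groups with TMM scaling. It gave 27 comparisons of 2 groups and 10 interactions, with p-values adjusted by Benjamini-Hochberg across the 15470 genes and calls at an adjusted p under 0.05. DESeq2 1.42.0 was an alternative. Errors of log2 values are SE, and those of CPM are SD over 3 replicates. Depth limits the precision through counting error, and the lowest member count in any library was 141. No 2 libraries of a group agreed within sampling noise (lowest chi-square per gene 3.64 over 72 pairs).

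Named members were those with the 6 largest and 6 smallest mean changes over the lines in each family of comparisons, the 4 largest and 4 smallest per edited line at 0 h, the 3 highest and 3 lowest of each interaction among members called, the 3 highest and 3 lowest levels per kb, and MRPL12, MRPS18A, MRPS18B and MRPS18C. Spans, promoters and starts are RefSeq GRCh38.p14, and RefSeq spans were preferred to the deposited ones after seeing the data. The scripts were tested on simulated data. Members and lists were chosen with earlier results of these data known.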

Additional observations from a re-analysis of the deposited data

Results flagged for a closer look

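The changes below differed between lines by the edgeR interaction test at an adjusted p under 0.05, and are given as the log2 difference from the change in WT. They are the 3 highest and 3 lowest of the members that passed, or all of one sign where fewer passed. No explanation was weighed.

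For 3 h against 0 h, CSB_KO differed in MRPL44 (-0.69), MRPS33 (-0.44) and MRPL50 (-0.38). The mean of the STK19 clones differed in MRPS30 (0.16), MRPS25 (0.15), MRPL1 (-0.51), MRPS6 (-0.42) and MRPL3 (-0.40). For 4 h DMSO against 0 h, CSB_KO differed in MRPS30 (0.22), MRPL44 (-0.57), MRPS18B (-0.27) and MRPL58 (-0.24), and the STK19 clones in MRPL50 (0.46), MRPS30 (0.32), MRPS18B (-0.36), MRPL1 (-0.35) and MRPS6 (-0.35).

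For 20 h DMSO against 0 h, CSB_KO differed in MRPL44 (1.33), MRPS24 (1.31), MRPS17 (1.31), MRPS28 (-1.32), MRPS27 (-1.15) and MRPS31 (-1.14). The STK19 clones differed in MRPL44 (0.85), MRPL18 (0.68), MRPS17 (0.64), MRPL24 (-0.86), MRPS28 (-0.76) and MRPS27 (-0.64).

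For ATRi against DMSO, CSB_KO differed at 4 h in MRPS25 (0.40). At 20 h it differed in MRPS28 (0.55), MRPL24 (0.53), MRPS25 (0.27), MRPL17 (-0.97), MRPS30 (-0.95) and MRPL36 (-0.87). The STK19 clones differed at 20 h in MRPS25 (0.39), MRPS33 (0.36), MRPS28 (0.35), MRPS18A (-0.60), MRPL14 (-0.60) and MRPL20 (-0.57). WT is the only unedited line, so a trait of WT and an effect of a knockout cannot be told apart in any of these.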

How the results depend on the processing

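Each comparison was recomputed with 2 other scalings, without the filter on low counts, with DESeq2, with the replicate number as a block, without the 5 libraries that lay apart, without each replicate number and without each single library. Of 423 counts of members with libraries or replicates left out 395 stayed within 1.5 times, as did 211 of 222 under the other settings. Of the values of named members 1399 of 1497 with a replicate number left out and 2874 of 2994 under the other settings kept their direction and their side of the threshold. Where a count moved, the cause was not tested. Without the 5 libraries the count of members called was 2 in place of 1 in CSB_KO and 12 in place of 0 in WT for ATRi at 4 h, 35 in place of 21 in CSB_KO for ATRi at 20 h, and, for differences from WT, 4 in place of 8 (CSB_KO, 3 h), 10 in place of 5 (CSB_KO, 4 h), 27 in place of 15 (STK19 clones, 4 h) and 3 in place of 1 (CSB_KO, ATRi at 4 h). Upper-quartile scaling gave 3 in place of 8 (CSB_KO, 3 h), 14 in place of 25 (STK19 clones, 3 h) and 6 in place of 15 (STK19 clones, 4 h). DESeq2 gave 1 in place of 0 in WT for ATRi at 4 h. Leaving out libraries or replicates gave 39 to 67 in STK19_KO1 at 3 h, 1 to 2 in CSB_KO and 0 to 1 in WT for ATRi at 4 h (1 without WT 4 h DMSO replicate 1), and, for differences from WT, 1 to 20 and 1 to 10 in CSB_KO at 3 h and 4 h, and 7 to 34, 3 to 23 and 19 to 42 in the STK19 clones at 3 h, at 4 h and for ATRi at 20 h. MRPS30 in WT at 3 h, not called at 0.01, was -0.15 without the 5 libraries and -0.13 to 0.069 without 1 replicate number. Upper-quartile scaling moved the median of all genes by -0.11 to 0.16 on the log2 scale. Same-numbered libraries had correlations from -0.0753 to 0.590 in their deviations, with all 3 over 0.1 in 2 of 27 comparisons. Both were in WT, at 0.590, 0.329 and 0.385 for 3 h against 0 h and 0.516, 0.161 and 0.311 for 4 h DMSO against 0 h. At 3 h replicates 2 and 3 correlated as highly with another number (0.355 and 0.426), and replicate 1 did not (-0.424). Whether WT libraries of the same number belong together was not tested, as the replicate block was common to all lines. That block moved no count by more than 1.5 times. It gave 64 members called in CSB_KO at 20 h, as without it, and 39 in place of 35 in WT.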
